A study of Mus musculus with 30 samples.

Results

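Interferon response genes were read out by bulk RNA sequencing of prefrontal cortex from C57BL/6J mice aged 40 days. The 39 genes were taken from a list of mouse interferon-stimulated genes, matched from Ensembl identifiers to symbols, and all 39 were present among the 18240 genes of the table. Mice were wild type (WT) or heterozygous for Adnp (HT), a gene for a chromatin-bound homeodomain protein. WT mice received vehicle (4 female and 4 male libraries). HT mice fell into 3 arms: vehicle (4 libraries from females, 3 from males), fluoxetine (4 and 4) and lithium (3 and 4). Fluoxetine blocks serotonin reuptake, and lithium is used to stabilize mood. Both drug groups were therefore HT, and a drug effect in WT mice was not analysed here. The sources used here do not give the mutant Adnp allele or the drugs' doses and durations. Nor do they say whether each library came from a separate mouse, so each p-value reflects library-to-library spread, which may be technical. All libraries carry 1 batch label. Libraries held 23771758 to 34307061 reads, and the sex label matched the data in 30 of 30. Values are normalized read counts unless stated otherwise.

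Interferons are cytokines released when a cell senses foreign or misplaced nucleic acid. Type I interferons act through the receptor Ifnar1 and Ifnar2 and the kinases Jak1 and Tyk2 to assemble ISGF3, a transcription factor complex that includes Stat2 and Irf9. ISGF3 binds the interferon-stimulated response element, which carries paired GAAA repeats, while interferon gamma acts largely through another element, the gamma-activated site. In the brain, endothelial cells, microglia, astrocytes and border cells of the meninges all carry such genes, and a low tonic level is seen without infection. In bulk tissue, fewer cells of a type and less RNA per cell cannot be told apart.

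Promoter sequence was compared first, because the list was chosen by function and not by sequence. RefSeq promoters of build GRCm38.p6, from 250 bases before to 50 bases after each start, were matched for 29 of the 39 genes. The response element core, searched as GAAANNGAAA on both strands, was in 16 of these 29 genes (55.2%) and in 1079 of all 27025 genes with such a promoter (3.99%). With a spacing of 1 or 2 bases (GAAANGAAA or GAAANNGAAA) it was in 19 of 29 (65.5%) against 7.27% of all. The core of the gamma-activated site, TTCNNNGAA, was in 7 of 29 (24.1%) against 9.55%. Matches of the 2 motifs can overlap, since both hold GAA. Of the genes whose levels are described below, Irf9, Dtx3l, Ifit2, Psmb8, Ifi44, Xaf1 and Lgals3bp had no GAAANNGAAA in this window. Ifi27 was among the 10 genes without a matched promoter. The promoters of 5 genes that hold the core are printed to show its forms, each as the 160 bases before the RefSeq start, 5′ to 3′ on the gene's strand. Capitals mark the response element core, which reads TTTC instead of GAAA where it lies on the other strand. Ifit3 is at chr19:34583369-34583528 (plus strand), Isg15 at chr4:156200819-156200978 (minus), Rsad2 at chr12:26456453-26456612 (minus), Irgm1 at chr11:48871421-48871580 (minus) and B2m at chr2:122147527-122147686 (plus).
Ifit3: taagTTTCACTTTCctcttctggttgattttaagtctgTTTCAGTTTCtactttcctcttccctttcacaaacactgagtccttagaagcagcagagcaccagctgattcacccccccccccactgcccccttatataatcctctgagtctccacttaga
Isg15: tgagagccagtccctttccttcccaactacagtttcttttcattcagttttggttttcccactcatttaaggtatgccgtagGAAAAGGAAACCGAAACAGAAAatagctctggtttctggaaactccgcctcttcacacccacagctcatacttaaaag
Rsad2: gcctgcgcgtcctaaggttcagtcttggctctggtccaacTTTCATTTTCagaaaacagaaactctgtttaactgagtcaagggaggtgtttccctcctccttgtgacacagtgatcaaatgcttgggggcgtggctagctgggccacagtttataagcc
Irgm1: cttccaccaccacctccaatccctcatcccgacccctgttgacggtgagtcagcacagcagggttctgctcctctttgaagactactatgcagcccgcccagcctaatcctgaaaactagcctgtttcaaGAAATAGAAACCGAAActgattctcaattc
B2m: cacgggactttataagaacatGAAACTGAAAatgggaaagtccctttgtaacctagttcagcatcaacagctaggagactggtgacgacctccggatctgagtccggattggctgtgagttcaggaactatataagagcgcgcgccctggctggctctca
The Isg15 stretch holds 3 overlapping cores, those of Ifit3 and Irgm1 hold 2 each and those of Rsad2 and B2m hold 1. A match describes letters in this window and not a bound site.

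Levels differed widely among the 39 genes. Per kb of exonic length, B2m, the light chain of class I major histocompatibility molecules, had the highest mean over 30 libraries, 2016.5 normalized counts per kb. Ifitm3, a membrane protein that hinders virus entry, followed at 346.5, then Ifi27 at 333, Ifit3 at 158, Lgals3bp, a secreted glycoprotein, at 158 and Stat2 at 147. Zbp1, a sensor of Z-form nucleic acid, was lowest at 1.83 per kb, below Mx1, a dynamin-like antiviral GTPase, at 3.32, Ifi44 at 4.76 and Oas2 at 4.88. Zbp1 averaged 6.48 normalized counts, under the minimum mean of 10, so 38 of the 39 genes were tested. Some neighbours share exonic sequence: Parp9 and Dtx3l on opposite strands (9.4% and 8% of their exonic bases), Psmb9 and Tap1 (5.79% and 3.87%), and Igtp with Irgm2 on the same strand (8.01%). Antisense models cover 16.8% of Ifi35 and 14.7% of Psmb8, and another model on the same strand covers 13.9% of Rtp4. The sources used here do not say how strand was handled in counting, so reads in these shared stretches may not have been separated.

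One library, HT lithium male 4, was set apart because it lies high in these genes, and is given separately where stated. Its height is therefore a description that restates this choice and not a test. HT lithium male 4 was the highest of all 30 libraries for 33 of the 39 genes and higher than the other 6 lithium libraries for 36. Of all 16824 tested genes, 15.8% were highest in this library and 26.8% were above the other lithium libraries. Its level was a median 1.51 times the median of the other 6 lithium libraries (0.974 for Dhx58 to 2.45 for Ifit1), and 20 of 39 genes were over 1.5-fold, against 8.30% of all genes. Ifit3, an RNA-binding antiviral protein, read 264, 242 and 322 in lithium females 1 to 3 and 354, 275 and 306 in lithium males 1 to 3, against 649 in HT lithium male 4. Isg15, a ubiquitin-like modifier, read 53.6, 37.0 and 45.3 in the females and 39.9, 47.7 and 39.8 in the males, against 89.96. For both genes HT lithium male 4 lay above every other library, and the other 6 overlapped the remaining groups. Counting error was small beside these gaps: the 577 Ifit3 reads have an exact Poisson 95% interval of 531 to 626 and the 80 Isg15 reads one of 63.4 to 99.6.

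Antiviral effectors lay highest in that library. Their 12 genes had a median ratio of 1.80 to the other lithium libraries, with Ifit1 at 2.45, Oas2, an oligoadenylate synthase, at 2.28, Ifit3 at 2.23 and Ifitm3 at 2.21. The 4 interferon-inducible GTPases had a median of 1.34, although Gbp2 stood at 2.10. Stat2 (1.05), Rsad2 (1.09), Dhx58 (0.974) and Ifi44 (0.999) stayed near the other lithium libraries. Ifit3 has a near-identical neighbouring copy, Ifit3b, and reads could be split between them. Summed over both copies the ratio was 2.28.

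**Figure D1:**
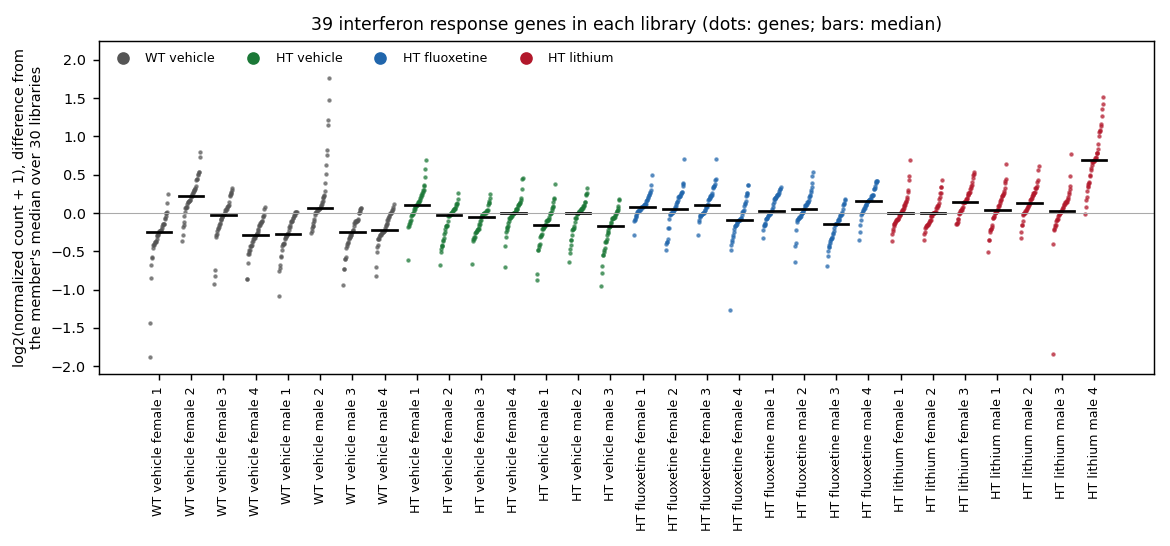
Each dot is 1 of 39 genes in 1 of 30 libraries (x axis), as the difference of log2(normalized count + 1) from that gene's median over all libraries (y axis); black bars are the median of the 39 genes and colours the 4 conditions. HT lithium male 4 has a median of 0.69, and the 5 lowest medians, -0.29 to -0.22, belong to WT vehicle libraries.

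The same library was extreme for markers of other cell types and regions. All 6 meningeal fibroblast markers (Dcn, Lum, Col1a1, Col1a2, Slc6a13, Igf2) were highest there, and their summed count was 10999, against 3908 to 6209 in the other lithium libraries, 2279 to 5845 in WT vehicle, 2644 to 4930 in HT vehicle and 3685 to 6293 in HT fluoxetine. The 6 olfactory bulb and neuroblast markers summed to 13428, against 2558 to 8826 in the other lithium libraries, 2176 to 8183 in WT vehicle, 2280 to 12811 in HT vehicle and 2083 to 7694 in HT fluoxetine. The 6 endothelial markers summed to 7157, the highest of 30, beside 5606 to 7124 in the other lithium libraries. The 4 cortical excitatory neuron markers were lowest there, 38517 against 49141 to 58447 in the other lithium libraries. The 6 striatum markers were also lowest there, 2691 against 2834 to 9424 in the other lithium libraries. Of the 5 astrocyte markers, Gfap (5278), Aqp4 (4396) and Gja1 (5576) were the highest of 30 and Slc1a2 (54756) the lowest, and the sum, in which Slc1a2 counts most, was 71649, the lowest of 30. The 8 microglia markers did not stand out, at 9026 (rank 22 of 30). None of these markers was at 0 in any library, so cortical neuron markers were present in all 30. Of 8 leukocyte markers, Ptprc and Cd79a summed to 162 there, rank 2 of 30, against 103 to 164 in the other lithium libraries and 88.8 to 122 in WT vehicle. The other 6, among them Cd3e and Cd8a, were not in the table and are not analysed here. The part of these cells and regions in the interferon genes' levels was not tested.

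A second library was high for a narrower set, which was noticed after its values were seen. WT vehicle male 2 was above the other 7 WT libraries for 14 of 39 genes, against 13.1% of all tested genes. Its ratio to the median of the other WT libraries ran from 0.928 for Lgals3bp to 4.498 for Zbp1 with a median of 1.249, and 10 genes were over 1.5-fold, against 1.64% of all genes. Rsad2, or viperin, an antiviral radical-SAM enzyme, read 107 there, against 30.7 to 53.8 in the other 7 WT libraries, and Mx1 read 40.3 against 5.71 to 13.4. Both were the highest of all 30 libraries. Ifit3 (454 against 180 to 282) and Ifit1 (179 against 65.4 to 133) were second only to HT lithium male 4. Zbp1 read 14.6 against 0.896 to 6.35, from 17 reads. Stat2, Irf9, Bst2, Ifi27 and B2m overlapped the other WT libraries. In contrast to HT lithium male 4, its meningeal (5391, rank 7), endothelial (6025, rank 13) and olfactory bulb (2176, rank 29) marker sums lay inside the range of the other libraries, and its excitatory neuron sum of 60700 was the second highest. The 2 libraries were thus high in overlapping but unequal subsets: Ifit1 and Ifit3 were over 2-fold in both, whereas Rsad2 was 3.34-fold in WT vehicle male 2 and 1.09-fold in HT lithium male 4.

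**Figure D2:**
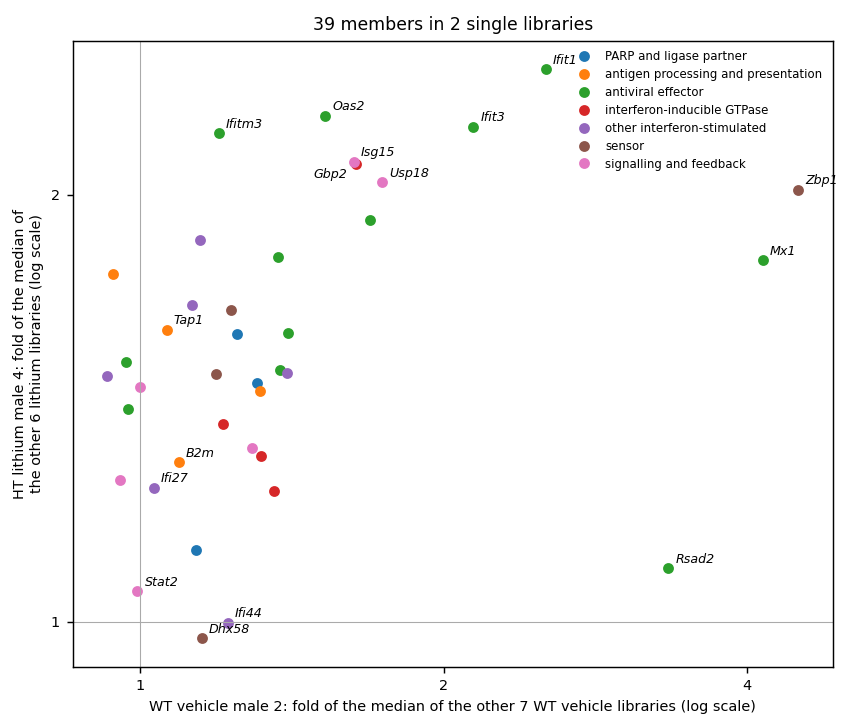
Each dot is 1 of 39 genes, coloured by role; the x axis is WT vehicle male 2 over the median of the other 7 WT vehicle libraries and the y axis HT lithium male 4 over the median of the other 6 lithium libraries, both on log scales. Rsad2 (3.34 and 1.09), Mx1 (4.15 and 1.80) and Zbp1 (4.498 and 2.02) lie to the right, while most other genes spread along the y axis with x between 0.928 and 1.74.

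Across libraries the median of the 39 genes spanned a wider range in WT than in HT libraries other than HT lithium male 4. As a log2 difference from each gene's median over 30 libraries, it was -0.25, 0.22, -0.02 and -0.29 in WT females 1 to 4 and -0.27, 0.06, -0.25 and -0.22 in WT males 1 to 4. The 5 lowest libraries of the 30 were thus WT, while WT vehicle female 2 ranked second highest. The 21 HT libraries other than HT lithium male 4 fell between -0.16 and 0.16. WT vehicle female 2 also had high meningeal (5845), olfactory bulb (8183) and endothelial (6581) marker sums among the WT libraries, the part of which was not tested.

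**Figure D3:**
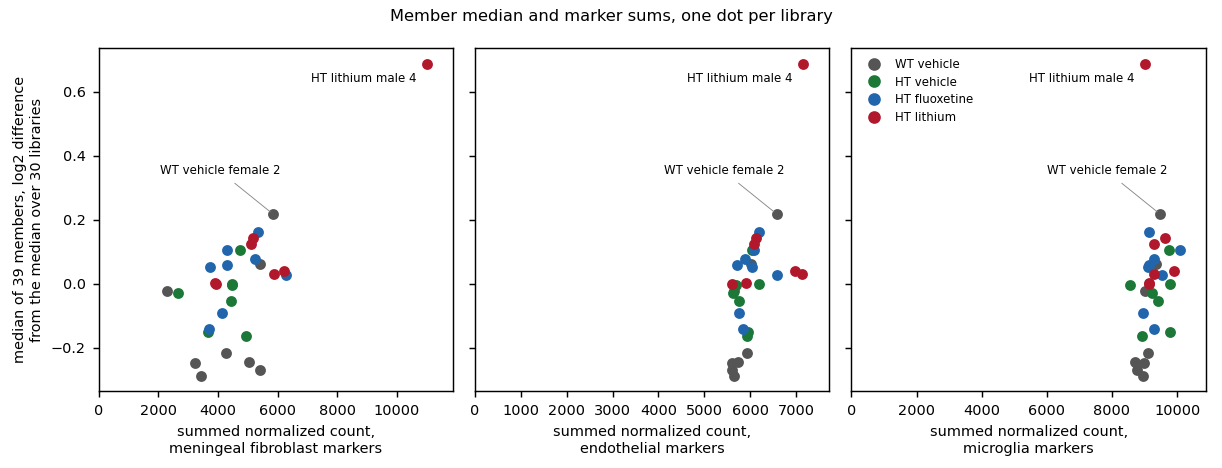
Each dot is 1 library, coloured by condition; the y axis is the median log2 difference of the 39 genes from their medians over 30 libraries and the x axes are summed normalized counts of meningeal fibroblast, endothelial and microglia markers. HT lithium male 4 combines the highest gene median (0.69) with the highest meningeal (10999) and endothelial (7157) sums, while its microglia sum (9026) is unremarkable.

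Ifi27 separated the genotypes more than any other of the genes. It encodes a small hydrophobic protein of mitochondrial and nuclear membranes and lies on chromosome 12 at 103434211 to 103440239, plus strand (GRCm38). It read 407, 443, 433 and 412 in WT females 1 to 4 and 465, 425, 372 and 377 in WT males 1 to 4. In HT vehicle mice it read 540, 446, 427 and 544 in the females and 533, 511 and 512 in the males. All 22 HT libraries, drug-treated ones included, lay above the WT median of 418, and 18 of 22 lay above every WT library. Xaf1 also had all 22 above its WT median, but 4 above every WT library. The share of all genes with all 22 above the WT median is not given here. Of the 16824 tested genes, 117 (0.695%) reached as many HT libraries above all WT libraries. HT vehicle against WT vehicle gave a log2 difference of 0.27 (SE 0.07), or 1.21-fold, with an adjusted p of 0.0623 by limma, which did not pass the threshold of 0.05. The adjusted p was 0.0217 when HT lithium male 4 was left out of the fit, which changed only the estimated spread, 0.0315 without HT vehicle female 3, 0.0306 without WT vehicle male 1, 0.0277 by DESeq2 and 0.0608 by edgeR. The difference was 0.20 in females and 0.35 in males, and the difference between the sexes was 0.15 (SE 0.14, adjusted p = 1 by limma).

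Over the list, differences between genotypes under vehicle were small. Of 38 tested genes, Ifi27 included, 23 were higher in HT than WT and 15 lower, with a median log2 difference of 0.07 beside 0.00 over all genes, of which 49.3% were higher. limma and edgeR called 0 of the 38 (each called 0.731% of all genes) and DESeq2 called 1, Ifi27 (0.856% of all genes). At an unadjusted p under 0.05 there were 2, both higher, or 5.26% of the 38 beside 6.6% of all genes. The second was Dtx3l, a ubiquitin ligase that pairs with Parp9. Dtx3l had 129 to 180 (median 150) in WT vehicle and 137 to 185 (median 177) in HT vehicle, which overlapped, and a log2 difference of 0.17 (SE 0.07, adjusted p = 0.588). Rsad2 had the third smallest p with the opposite sign, -0.38 (SE 0.19). It read 30.7 to 107 (median 34.8) in WT and 23.9 to 42.0 (median 30.5) in HT vehicle, and without WT vehicle male 2 its log2 difference was -0.17. Irf9 came next by p, at 0.09 (SE 0.06, adjusted p = 0.925), with 336 to 427 (median 351) in WT and 343 to 441 (median 391) in HT vehicle. Of the 12 antiviral effectors 4 were higher and 8 lower in HT, while all 4 GTPases, 3 PARP and ligase partners and 3 tested sensors were higher, none of them called.

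**Figure D4:**
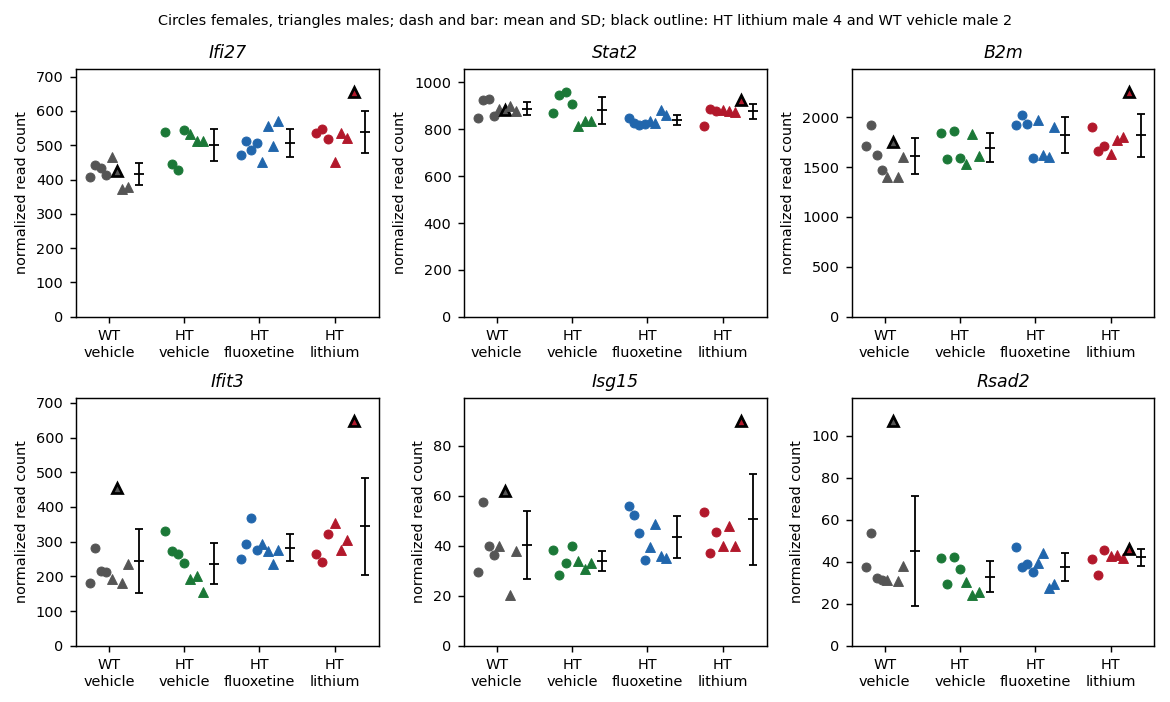
Normalized read counts (y axes, from 0) of 6 genes in every library by condition; circles are females, triangles males, the dash and bar the mean and SD, and black outlines mark HT lithium male 4 and WT vehicle male 2. Ifi27 is 372 to 465 in WT and 427 to 656 in HT libraries, whereas Ifit3, Isg15 and Rsad2 overlap between conditions apart from the outlined libraries.

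Ifi27 was also the gene that passed the test when drug-treated HT mice were set against WT mice. It read 451 to 572 (median 502) under fluoxetine and 451 to 656 (median 534) under lithium, or 451 to 549 without HT lithium male 4, against 372 to 465 in WT. Ifi27 rose 1.21-fold in HT fluoxetine (log2 0.28, SE 0.07, adjusted p = 0.0243) and 1.29-fold in HT lithium (0.36, SE 0.07, adjusted p = 0.00318), and by 0.31 without HT lithium male 4 (adjusted p = 0.00658). The fluoxetine call was lost on leaving out any of 7 single libraries (adjusted p 0.0507 to 0.0696), namely WT females 1 and 4, WT males 3 and 4, fluoxetine female 2 and fluoxetine males 2 and 4. These contrasts differ from WT in genotype and drug at once, and they share the WT libraries with the genotype comparison. Against HT vehicle mice, Ifi27 differed by 0.01 (SE 0.07) under fluoxetine and 0.09 (SE 0.07) under lithium.

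Against WT, most of the 38 genes had positive differences. With fluoxetine 32 were higher and 6 lower, with a median of 0.16; with lithium 37 were higher and 1 lower, with a median of 0.26, or 0.17 without HT lithium male 4. Over all genes 49.6% were higher with fluoxetine and 49.5% with lithium. limma called 1 of 38 in each, beside 1.49% of all genes for fluoxetine and 1.97% for lithium (1.38% without HT lithium male 4). edgeR also called Ifi27 alone in both (1.51% and 1.92% of all genes), while DESeq2 added Dtx3l in both and Gbp3 in lithium (1.97% and 2.97% of all genes). Dtx3l missed the threshold by limma at adjusted p = 0.0533 for fluoxetine and 0.0545 for lithium. It read 142 to 203 (median 189) under fluoxetine and 167 to 206 (median 183) under lithium. Of 22 HT libraries, 12 lay above all WT libraries, but the share of all genes reaching as many is not given here. The Dtx3l log2 difference was 0.26 for fluoxetine and 0.27 for lithium (SE 0.07). At an unadjusted p under 0.05, 10 genes were higher and 1 was lower under fluoxetine (28.9% of 38 beside 12.1% of all genes). The lower one was Stat2, with 819 to 881 (median 831) against 850 to 929 (median 885) in WT and a log2 difference of -0.08 (SE 0.03, adjusted p = 0.222). Lithium had 16 higher and 0 lower (42.1% beside 17.7% of all genes), and 9 without HT lithium male 4 (beside 11.9%). Single libraries moved the count of called genes. With lithium it was 5 without WT vehicle female 2 (Ifi27, Dtx3l, Gbp3, Oas2 and Parp14), 4 without WT vehicle male 2 (Ifi27, Dtx3l, Gbp3 and Ifit3), 4 without HT lithium male 2 and 2 without HT lithium female 2. With fluoxetine it was 2 without WT vehicle female 2, WT vehicle male 2 or HT fluoxetine female 4, and 0 without any of the 7 libraries named for Ifi27. Ifit3 under lithium, for example, differed by 0.46 with WT vehicle male 2 (adjusted p = 0.181) and by 0.60 without it (adjusted p = 0.0297).

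Markers of other cell types and regions were compared with WT in the same fits. Under lithium, 6 of 6 meningeal fibroblast markers were higher (median log2 difference 0.51, or 0.36 without HT lithium male 4), as were 6 of 6 olfactory bulb and neuroblast markers (0.96, or 0.78) and 5 of 6 endothelial markers (0.12 with and without that library). At an unadjusted p under 0.05 there were 4 meningeal and 5 endothelial markers on the higher side, and limma called Cldn5, an endothelial tight junction gene, which was not called without HT lithium male 4. Striatum markers were lower in 6 of 6 (-0.59, or -0.58). Under fluoxetine, 5 of 6 meningeal (0.21), 6 of 6 olfactory bulb (0.21) and 4 of 6 endothelial markers (0.08) were higher. So were 7 of 8 microglia markers (0.06), of which Tmem119 was called. Under lithium 7 of 8 microglia markers were also higher (0.08, or 0.07 without HT lithium male 4). In HT vehicle 8 of 8 were higher (0.03), and none was called in either. The 4 cortical excitatory neuron markers were lower under fluoxetine (-0.14) and lithium (-0.19, or -0.09 without HT lithium male 4). All 4 were also lower in HT vehicle (-0.10). The part of these cells and regions in the interferon genes' differences was not tested.

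**Figure D5:**
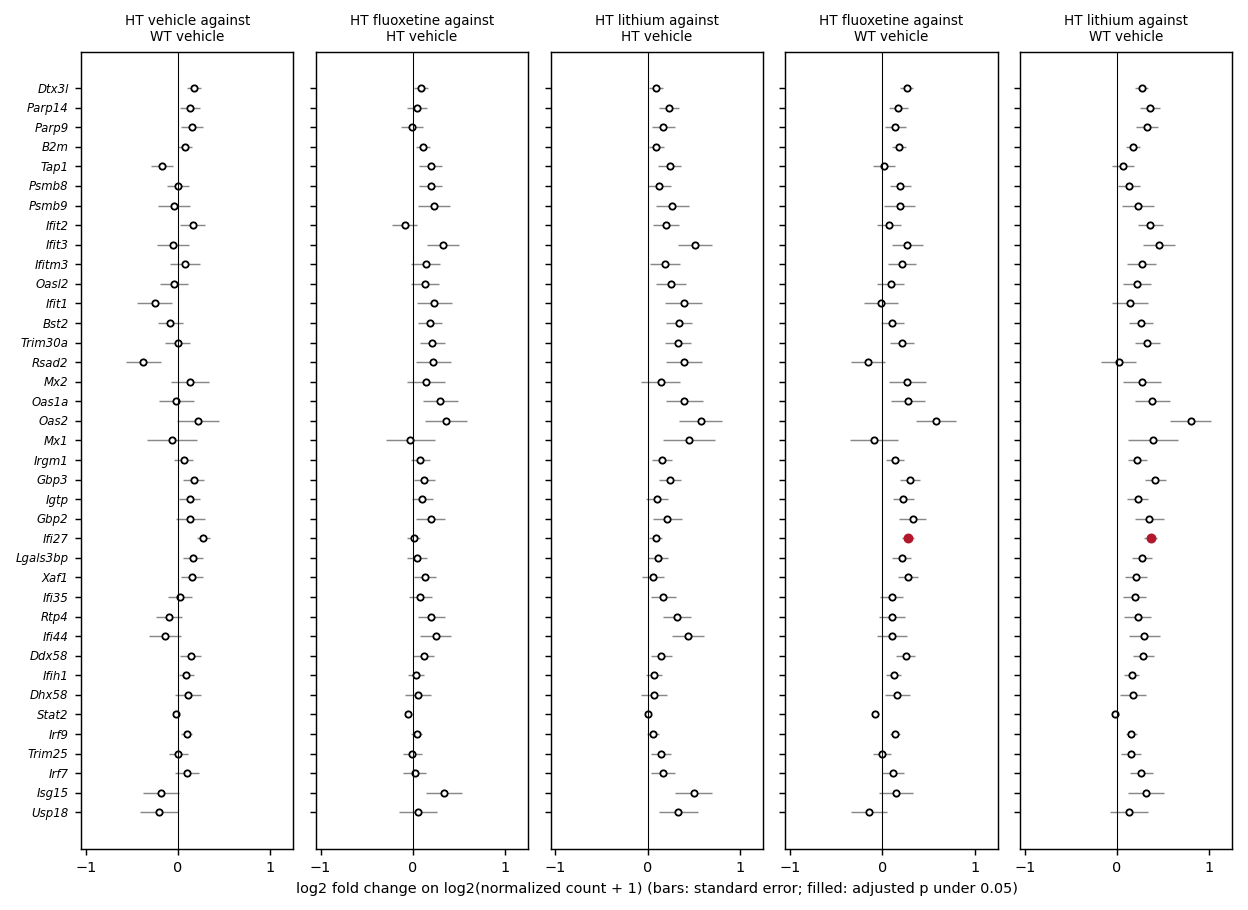
Log2 fold changes on log2(normalized count + 1) with standard errors (x axes) for the 38 tested genes (y axis, grouped by role) in 5 comparisons; filled dots passed an adjusted p of 0.05. The filled dots are Ifi27 in HT fluoxetine (0.28) and HT lithium (0.36) against WT vehicle, and all 38 lithium values against HT vehicle lie above 0.

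Fluoxetine against vehicle within HT mice changed none of the genes past the threshold. Of 38, 33 were higher and 5 lower, with a median log2 difference of 0.12 beside 0.00 over all genes. limma, edgeR and DESeq2 called 0 (0.0357%, 0.0297% and 0.0714% of all genes), and 0 had an unadjusted p under 0.05, beside 2.63% of all genes. The smallest p belonged to Stat2, at -0.06 (SE 0.03, adjusted p = 1). Ifit3 read 156 to 331 (median 239) in HT vehicle and 235 to 367 (median 275) in HT fluoxetine, which overlapped, with a log2 difference of 0.33 (SE 0.18). Isg15 read 28.3 to 39.8 (median 33.2) and 34.2 to 56.0 (median 42.1), which also overlapped, with 0.34 (SE 0.19). Psmb8, an inducible proteasome subunit, read 47.0 to 82.3 (median 63.5) and 51.2 to 85.7 (median 78.5), with 0.19 (SE 0.12).

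Lithium against vehicle within HT mice gave positive differences in all 38 genes, none of which passed the threshold. The median log2 difference was 0.20, and 47.8% of all genes were higher. limma, edgeR and DESeq2 called 0 (0.0892%, 0.0892% and 0.12% of all genes), with a smallest adjusted p of 0.787. At an unadjusted p under 0.05 there were 9 genes, all higher, or 23.7% beside 5.72% of all genes. Without HT lithium male 4 the median was 0.10, 36 were higher and 2 lower, and 2 genes, Ifit3 and Ifi44, remained at an unadjusted p under 0.05, or 5.26%, beside 3.71% of all genes, with 0 called (0.0713% of all genes). All 6 meningeal fibroblast markers were also higher under lithium, by a median log2 difference of 0.44, or 0.30 without HT lithium male 4, with none called. Olfactory bulb and neuroblast markers were higher in 6 of 6 (0.75, or 0.57) and striatum markers lower in 6 of 6 (-0.76, or -0.71), again with none called. Their part in the interferon genes' differences was not tested.

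Single genes showed how far the contrast depended on that library. Ifit3 read 242 to 649 (median 306) under lithium, 242 to 354 without HT lithium male 4, and 156 to 331 (median 239) in HT vehicle. The groups overlapped, and the log2 difference was 0.51 (SE 0.18, adjusted p = 0.787), or 0.38 (SE 0.16) without that library. Isg15 went from 0.50 (SE 0.20) to 0.37 (SE 0.19), with 37.0 to 53.6 in the other 6 lithium libraries against 28.3 to 39.8 in HT vehicle. Bst2, or tetherin, which retains budding virus at the cell surface, went from 0.34 (SE 0.14) to 0.25 (SE 0.13), with 72.2 to 102 against 59.9 to 83.4. Ifi44, a cytoplasmic protein of the response, had nearly the same value with and without the library. It read 24.4 to 37.0 under lithium and 16.4 to 37.1 in HT vehicle, which overlapped, and its log2 difference was 0.44 with HT lithium male 4 and 0.42 without.

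By sex, the median lithium difference was larger in males. In males all 38 genes were higher than in HT vehicle, with a median of 0.32, and 15 had an unadjusted p under 0.05, all higher (39.5% beside 13.8% of all genes). In females the median was 0.07, and 1 gene, Stat2, passed an unadjusted p under 0.05, on the lower side (3.55% of all genes). In males limma and edgeR called 0 of 38 (each 0.0773% of all genes) and DESeq2 called Ifit3 (0.256%). In females all tools called 0 (limma 0%, edgeR 0%, DESeq2 0.0178% of all genes). Without HT lithium male 4 the male median was 0.18, with 32 higher and 6 lower. Of these, 9 had an unadjusted p under 0.05 (beside 6.51% of all genes) and 0 were called (0.0832%). HT vehicle males were low for some of these genes. Ifit3 read 191, 202 and 156 in HT vehicle males 1 to 3, below all 4 lithium males (354, 275, 306 and 649), whereas HT vehicle females (331, 274, 263 and 239) overlapped lithium females (264, 242 and 322). The male log2 difference of Ifit3 was 1.03 (SE 0.26, adjusted p = 0.197), or 0.77 (SE 0.23) without HT lithium male 4.

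The difference between the sexes itself passed in no gene. The median difference of the lithium response, male minus female, was 0.23. HT lithium male 4, set apart because it lies high, enters this median and the gene counts that follow. Neither is given here without that library. limma, edgeR and DESeq2 called 0 of 38 (0% of all genes by each), and 8 had an unadjusted p under 0.05, all higher in males (21.1% beside 10% of all genes). Irf9, the DNA-binding subunit of ISGF3, had the smallest p among them. Irf9 read 482.5, 439, 415 and 487 in lithium males 1 to 4, above all HT vehicle males (355, 391 and 394), and 359, 348 and 347 in lithium females 1 to 3, inside the range of HT vehicle females (441, 343, 393 and 378.5). Its log2 difference between the sexes was 0.40 (SE 0.12, adjusted p = 0.47), and 0.37 (SE 0.13) without HT lithium male 4. Stat2, its partner, followed at 0.20 (SE 0.06, adjusted p = 0.47). It read 884, 878, 875 and 923 in lithium males and 814, 886 and 879 in lithium females, beside 815, 838 and 834 in HT vehicle males and 868, 947, 960 and 909 in HT vehicle females. HT vehicle females thus lay above HT vehicle males in Stat2, without overlap, and the lithium and fluoxetine contrasts share these vehicle libraries.

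The remaining sex comparisons called none of the genes. For the genotype response, limma, edgeR and DESeq2 called 0 (0% of all genes by each), with 2 at an unadjusted p under 0.05, Stat2 (-0.15) and Ifit3 (-0.76), both lower in males (5.26% beside 2.05% of all genes). Without WT vehicle male 2 the male genotype difference of Ifit3 went from -0.44 to -0.14. For the fluoxetine response, the tools called 0 of 38 (limma 0%, edgeR 0% and DESeq2 0.00595% of all genes), with 2 at an unadjusted p under 0.05, Stat2 (0.19) and Ifi44 (0.77), both higher in males (beside 5.96%). Between males and females over all conditions, the tools called 0 (0.214% of all genes by limma and edgeR and 0.47% by DESeq2), and Irf9 alone had an unadjusted p under 0.05 (0.10 higher in males, beside 8.05% of all genes).

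Lithium and fluoxetine did not differ past the threshold in any of the 38 genes. Lithium was higher in 34 and lower in 4, with a median log2 difference of 0.10, which was 0.03 with 23 higher and 15 lower once HT lithium male 4 was left out. All tools called 0 (limma 0%, edgeR 0%, DESeq2 0.0773% of all genes), with 1 at an unadjusted p under 0.05, beside 6.86% of all genes. That gene was Ifit2, an RNA-binding relative of Ifit3. It read 233 to 367 (median 305) under fluoxetine and 274 to 538 (median 339.5) under lithium, with a log2 difference of 0.29 (SE 0.13, adjusted p = 0.703), or 0.21 without HT lithium male 4.

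Among the sensors, Ddx58 (RIG-I), which detects viral RNA ends, read 101 to 169 (median 132) in WT vehicle, 121 to 170 (151) in HT vehicle, 136 to 179 (167) in HT fluoxetine and 143 to 251 (151) in HT lithium. All conditions overlapped, and 21 of 22 HT libraries lay above the WT median. The same count held for Igtp and Lgals3bp, and Xaf1 and Ifi27 had all 22. The share of all genes with such a count is not given here. The antigen presentation gene B2m read 1398 to 1918 (median 1611) in WT vehicle, 1535 to 1864 (1612) in HT vehicle, 1590 to 2026 (1913) in HT fluoxetine and 1628 to 2254 (1772) in HT lithium. Its log2 difference from WT was 0.18 under fluoxetine and 0.17 under lithium (adjusted p = 0.302 and 0.238), with overlapping groups. Irgm1, a GTPase that guards vacuoles and autophagy, was tightly held in 6 lithium libraries, 257 to 274, with HT lithium male 4 at 344. It read 200 to 289 in WT vehicle, 192 to 280 in HT vehicle and 206 to 325 in HT fluoxetine.

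The genes varied together among libraries of the same group. Over the 703 pairs of 38 genes, the median Pearson r of the deviations from group means was 0.47 in 30 libraries, 0.35 without HT lithium male 4 and 0.30 without WT vehicle male 2 as well. Among 1000 genes spaced evenly by rank of mean level over all tested genes, it was 0.00 in each case. These were not matched to the levels of the listed genes and may include some of them. These values are descriptions, since all pairs share the same libraries. The highest pair was Ifit1 with Ifit3 (0.90, and 0.87 without HT lithium male 4), which are neighbours on chromosome 19. Usp18, which dampens interferon receptor signalling, and Oasl2 had the highest r in the 28 libraries (0.77). Which gene followed the others most depended on the libraries: Ifit3 had the highest median r with the other genes in all 30 (0.61) and without HT lithium male 4 (0.53), but Irf9 did once WT vehicle male 2 was left out as well (0.44, with Ifit3 at 0.35). Stat2 was among the lowest in each set (0.19, 0.06 and 0.09), as was Ifi27 (0.33, 0.17 and 0.12).

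Other genes of the pathway were counted in the same way. The comparison list, assembled with results of these data known, held 89 genes, of which 79 were in the table and 76 were tested. None of the 7 interferon ligand genes on it was in the table, and they are not analysed here. For genotype limma called 0 of 76, with 5 at an unadjusted p under 0.05 (beside 6.6% of all genes), 4 of them higher, and 40 higher in all. For fluoxetine it called 0, with 1 gene at an unadjusted p under 0.05 (beside 2.63%), which was higher, and 60 higher in all. For lithium it called 0, with 10 genes at an unadjusted p under 0.05, all higher (beside 5.72%), or 2 without HT lithium male 4 (beside 3.71%), and 58 higher in all. Calls by edgeR and DESeq2 were not counted for these genes. Against WT, limma called 3 of 76 in HT fluoxetine (beside 1.49% of all genes) and 2 in HT lithium (beside 1.97%), all higher. At an unadjusted p under 0.05, fluoxetine had 9 higher and 2 lower (beside 12.1%). Lithium had 17 higher and 4 lower (beside 17.7%), or 12 and 4 without HT lithium male 4 (beside 11.9%). Ifitm2 was among the called genes in both drug groups. Helz2, a helicase of the response, was among them in HT fluoxetine (log2 difference 0.29, SE 0.07, adjusted p = 0.042 by limma). Ifitm2, a relative of Ifitm3, averaged 168 ± 24.7 (SD, n = 8) in WT vehicle, 226 ± 35.4 (n = 7) in HT vehicle, 247 ± 24.7 (n = 8) in HT fluoxetine and 271 ± 55.4 (n = 7) in HT lithium. Its log2 difference from WT was 0.42 under vehicle (SE 0.11, adjusted p = 0.0623 by limma), 0.56 under fluoxetine (adjusted p = 0.00232) and 0.66 under lithium (adjusted p = 0.000534). The 5 tested receptor genes and the 10 kinases and transcription factors had 0 called by limma in the 6 comparisons of genotype and drug. Their median differences ranged from 0.00 to 0.04 and from -0.01 to 0.07.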

How the data were processed

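RNA was sequenced from TruSeq Stranded mRNA libraries, per the labels' protocols, with Salmon 0.11.2, R 3.6.0, DESeq2 1.19.11 and build GRCm38 named in the submitters' processing notes. No source used here gives the annotation or filters. The authors deposited a signal per gene that, from its values, is a read count divided by 1 factor per library; whole reads were recovered from 100% of values within 0.01, and in 2 columns the step lay within 0.5% of 1. Counts of all 42 replicate pairs differed beyond sampling noise (chi-square 4.79 to 31.9 per degree of freedom), so each library counted as 1 replicate. Symbols came from the GENCODE annotation of GRCm38 (18227 of 18240 identifiers).

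Tests used limma 3.58.1 (R 4.3.3, trend and robust) on log2(normalized count + 1), which understates changes of low genes, for 16824 genes with a mean of at least 10. One fit held 30 libraries in 8 groups; contrasts averaged the sexes, and p-values were adjusted by Benjamini-Hochberg over all genes. edgeR 4.0.16 and DESeq2 1.42.0 ran on the recovered reads; the fits were tested on counts simulated for the genotype comparison. Other alternatives were pseudocounts, filters, TMM scaling, moderation, replicate blocks, fewer groups and leaving out each library. Fold changes with p are given for called genes and the 4 of smallest p in the genotype, fluoxetine and lithium comparisons, and values also for the gene of highest mean in each of 7 roles. Other genes or contrasts singled out, such as Irf9 and Stat2 by sex and Ifit2 between drugs, were chosen after their values were seen. The genes, lists and tests were chosen with earlier results of these data known. Some genes of the lists are not reported here. Intervals cover counting error only.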

Additional observations from a re-analysis of the deposited data

Results flagged for a closer look

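Of 56 combinations of a described gene and a condition, 12 held a library whose gap to its nearest neighbour took up an unusually large share of the condition's range. Chance flags about 1 in 20 independent groups, but these genes vary together and many were described for their small p, so the count is not set against it. HT lithium male 4, which was set apart because it lies high in these genes, was the high library in 6: Irgm1 (gap 0.811 of the range), Ifit3 (0.725), Isg15 (0.688), Ddx58 (0.67), Psmb8 (0.602) and B2m (0.568). WT vehicle male 2 was high for Rsad2 (0.698) and Ifit3 (0.627), and HT fluoxetine female 3 was high for Ifit3 (0.559), at 367. The remaining 3 were low libraries: Dtx3l in HT vehicle male 3 (0.833), at 137 beside 177 to 185 in the other HT vehicle libraries, Rsad2 in HT lithium female 2 (0.617) and Dtx3l in HT fluoxetine female 4 (0.548). Over all 39 genes, 25 of 156 combinations held such a library, 15 of them from HT lithium male 4 and 4 from WT vehicle male 2.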

How the results depend on the processing

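Of 930 recomputed values for 35 results, 861 were labelled as kept. For single genes this meant the same direction and side of the threshold, and none reversed. For counts it meant a similar size. For medians it meant a shift under 0.176 log2, the SD between libraries of the median over the genes. Some of the medians are smaller than that, so the label does not speak to their direction. For genotype, 1 gene in place of 0 was called by DESeq2, by the replicate block and without WT vehicle male 2 and HT lithium male 4 together (a setting chosen after seeing the data), and 0 to 1 on leaving out single libraries (1 without HT lithium male 4, HT vehicle female 3 or WT vehicle male 1). For HT fluoxetine against WT, 2 in place of 1 were called by DESeq2 and by plain moderation, 3 without both libraries, and 0 to 2 without single libraries (2 without WT vehicle female 2, WT vehicle male 2 or HT fluoxetine female 4). For HT lithium against WT, 3 in place of 1 were called by DESeq2, 2 by plain moderation, by the replicate block, by the block on the number in the library name and without both libraries, and 1 to 5 without single libraries (5 without WT vehicle female 2, 4 without WT vehicle male 2 or HT lithium male 2, 2 without HT lithium female 2). The cause was not tested. Replicate numbers pair libraries in the labels by number alone: same-numbered libraries correlated at -0.43 to 0.446 in their deviations, so no pairing was assumed, and the replicate block changed no other count of called genes. Genes near a mean of 10 rest on few reads and are limited by counting.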
